A study of Mus musculus with 12 samples.

Results

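Fibroblasts treated with aldosterone were compared directly with fibroblasts treated with spironolactone, the agonist against the antagonist of the mineralocorticoid receptor (MR). The members are the 15300 genes, of 27631 in the authors' table for this pair of treatments, that had a mean of at least 10 normalized counts over the 8 libraries, and they come from 8 of the 12 samples of the series. The genes nearest this threshold were *Scin*, just outside with a mean of 9.999, and *Gm44421*, just inside with a mean of 10.01. Hindlimb muscles of wild-type C57 BL/10 mice aged 3 days gave the fibroblasts, which were kept in charcoal-stripped serum to remove steroids and then treated for 48 hours with 1 µM aldosterone, 1 µM spironolactone or vehicle (DMSO, here the third group). No group carried a transgene or deletion, and charcoal-stripped serum and DMSO were shared by all groups. Cells were pooled per mouse, with 2 mice and 2 replicate plates for each mouse and treatment, giving 4 libraries per group. Each library carries a sample number and a biological replicate number, and the labels do not state which of these is the mouse. Libraries are therefore named by both numbers (1_1, 1_2, 2_1 and 2_2), and all values are given in that order. The p-values measure the spread between these libraries, which is partly technical, since plates of 1 mouse are not separate animals. The main fit, the exact tests and the fit with the sample number as a block all count each plate as a replicate. With only 2 mice, the p-values do not stand for the spread between animals.

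Aldosterone, the main mineralocorticoid of the adrenal cortex, binds MR (*Nr3c2*), a nuclear receptor that moves to DNA on binding its ligand and activates genes such as *Sgk1*, a kinase that controls sodium channels in kidney epithelium. MR and the glucocorticoid receptor (*Nr3c1*) recognise the same DNA element and share many target genes, and aldosterone can bind both. Spironolactone is a synthetic steroid carrying a lactone ring that occupies MR without activating it as aldosterone does. Both compounds were given here at a matched dose and time. In skeletal muscle, fibroblasts make the connective tissue matrix and exchange growth factors and inflammatory signals with muscle fibres and immune cells.

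Library depth ran from 19141597 to 30219185 reads assigned to genes (median 24526764) and did not separate the groups (exact permutation test, two-sided, p = 0.914). Mitochondrial genes took 1.60 to 1.78% of normalized counts with aldosterone and 1.43 to 1.63% with spironolactone (exact permutation test, p = 0.0571). All 16 fibroblast markers were members, and their summed level was 1060960 to 1185040 with aldosterone and 1140920 to 1253420 with spironolactone in normalized counts (exact permutation test, p = 0.371). This sum was mostly *Col1a1*, *Col1a2*, *Vim* and *Col3a1*, so it says little of the other markers. Of the 16 markers, *Pdgfra* and *Pi16*, which mark the fibro-adipogenic progenitors of muscle, were called higher with aldosterone, with log2 fold changes of 1.02 and 1.27. At any fold, *Ly6a*, *Vim* and *Osr1* also passed as higher (0.99, 0.42 and 0.21) and *Col3a1* as lower (-0.36, adjusted p = 0.00368). The other markers did not pass, among them *Dpp4* (-0.75, adjusted p = 0.264), so the list did not move as 1. Pericyte and tendon markers, several of which fibroblasts also express, summed to 7564 to 11725 with aldosterone and 9851 to 13041 with spironolactone, and to 9003 to 13835 with aldosterone and 7769 to 11329 with spironolactone, with overlapping groups in both (exact permutation test, p = 0.2 and 0.286), although the tendon factor *Scx* and the pericyte marker *Mcam* were lower with aldosterone (-0.81 and -0.60, adjusted p = 1.71e-07 and 0.0375), and their part in the other differences was not tested. In both groups *Cspg4* made most of the pericyte sum and *Thbs4* the largest part of the tendon sum. *Thbs4* had a log2 fold change of 0.73 (adjusted p = 0.0641). The tendon markers *Mkx* and *Tnmd* had -0.45 and -0.14 and did not pass (adjusted p = 0.261 and 0.337). Markers of leukocytes, muscle and endothelium were low. Leukocyte markers summed to 345 to 381 with aldosterone and 302 to 385 with spironolactone, with *Ptprc*, *Adgre1* and *Tyrobp* under 1 in the mean of the 8 libraries. Muscle markers summed to 72.9 to 143 with aldosterone and 119 to 186 with spironolactone, with *Myog*, *Myf5* and *Ckm* under 1. Endothelial markers summed to 551 to 648 with aldosterone and 469.7 to 522 with spironolactone, mostly *Tek*, and the groups did not overlap (exact permutation test, p = 0.0286, the smallest that 4 against 4 libraries allow). For bulk RNA, fewer cells of a type and less RNA per cell cannot be told apart.

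With aldosterone, 303 of the 15300 members were higher than with spironolactone and 88 were lower (limma, Benjamini-Hochberg adjusted p of at most 0.05 over all 27631 genes and a log2 fold change of at least 1 in size). These are 1.98% and 0.575% of the members, against 1.38% and 0.521% of all genes in the table. At any fold, 1283 members (8.39%) were higher and 1037 (6.78%) lower at this adjusted p, and the median log2 fold change of all members was -0.0043. The increases were larger than the decreases. Their median log2 fold change was 1.55, with 88 genes at 4-fold or more and 43 at 8-fold or more, while the decreases had a median of -1.31, 7 genes at 4-fold or more and 0 at 8-fold or more. Every aldosterone library lay above every spironolactone library for 292 of the 303 genes, and below for 82 of the 88, against 11.1% and 9.92% of all members. With 1 library left out, 244 to 264 were higher and 57 to 71 lower, the lowest counts of lower genes being 57 without spironolactone 1_2 and 58 without spironolactone 2_2. All 303 and all 88 differed in the same direction in both sample numbers. The genes were called on these same libraries, so this agreement and the separation of the groups largely follow from the choice. Protein-coding genes made up 280 of the higher and 80 of the lower genes, and lncRNAs 20 and 4. The higher genes took 2.46% of all normalized counts with aldosterone and 0.865% with spironolactone.

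**Figure D1:**
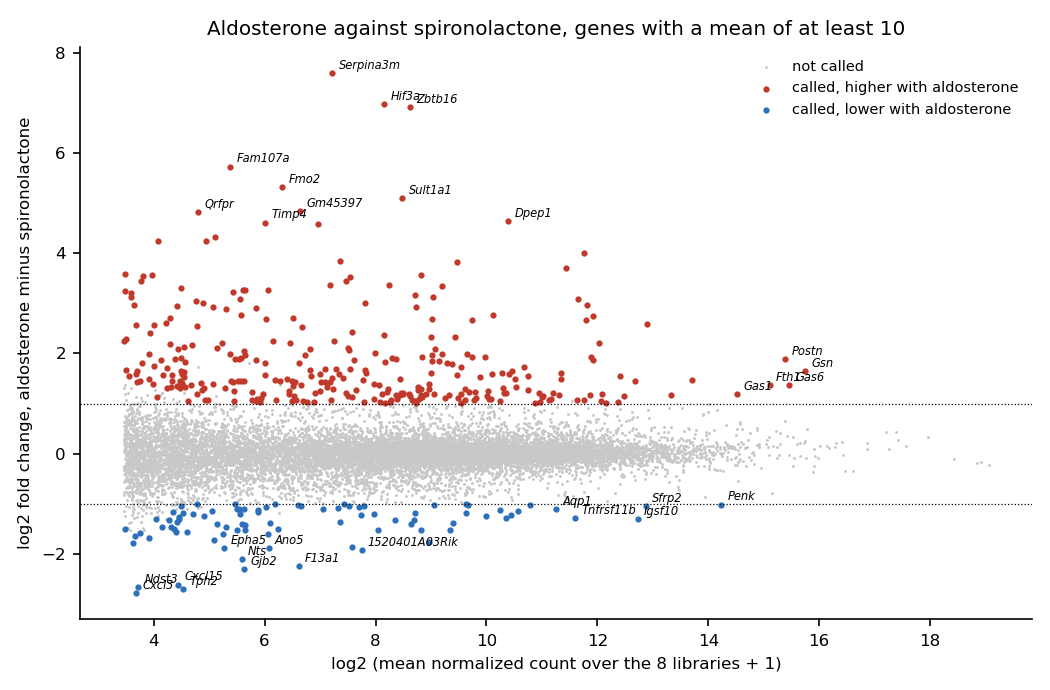
Log2 fold change between aldosterone and spironolactone (vertical axis) against the log2 mean normalized count (horizontal axis) for the 15300 members, 1 point per gene. Red points are the 303 genes called higher and blue points the 88 called lower with aldosterone, and dotted lines mark a log2 fold change of 1 in either direction. The red points reach 7.61 (*Serpina3m*) and the blue points only -2.79 (*Cxcl3*).

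Results that ended with 1 library left out are given with the gene, beside the value of a fit that takes the sample number as a block, called the replicate block here. Most genes of a list known to respond to corticosteroids were higher with aldosterone. The list was chosen with earlier results of these data known, so its counts describe it and test nothing. Of the 24 genes in this list, all of them members, 17 were higher and 0 lower at both thresholds, and 20 were higher and 0 lower at any fold. The median log2 fold change of the list was 1.72. Of all members, 1.98% were higher and 0.575% lower at both thresholds, and 8.39% and 6.78% at any fold. These shares, from the fit without the block, stand beside every list below, all chosen in the same way. The block fit called more members at both thresholds, 322 higher and 112 lower against 303 and 88. Its share of all members at any fold is not given here. Counts of a list with the block therefore have no such share beside them, and a rise over the main fit is not particular to a list. *Fkbp5* encodes a co-chaperone of steroid receptors that restrains their activity (chromosome 17, 28618068 to 28736501, mm39, as all gene positions in this form). It had normalized counts of 7239, 6353, 6313 and 6134 with aldosterone and 487, 437, 371 and 335 with spironolactone. The groups were far apart, with a log2 fold change of 4.01 ± 0.09 (SE, adjusted p = 1.04e-14), or 16.1-fold. *Tsc22d3* encodes GILZ, an anti-inflammatory leucine zipper protein, and had 12839, 12348, 13350.3 and 13470.2 with aldosterone and 2142, 2153, 2180.0 and 2132 with spironolactone. No library departed from its group, and the difference was 2.59 ± 0.05 on the log2 scale (SE, adjusted p = 1.50e-15).

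*Zbtb16* and *Hif3a* were close to silent with spironolactone. *Zbtb16* (PLZF, a zinc finger repressor, chromosome 9, 48565597 to 48747522) had 902, 845, 720.0 and 659.7 with aldosterone and 4.29, 11.4, 3.24 and 5.10 with spironolactone, with a log2 fold change of 6.92 ± 0.26 (SE, adjusted p = 1.06e-11). *Hif3a*, an inhibitory member of the hypoxia-inducible factor family (chromosome 7, 16765432 to 16796352), had 566, 568, 588 and 535 with aldosterone and 3.22, 6.49, 1.08 and 5.10 with spironolactone, with a log2 fold change of 6.98 ± 0.31 (SE, adjusted p = 6.57e-11). The groups did not overlap for either gene. *Sgk1* (chromosome 10, 21758083 to 21875802) had 6454, 6310.4, 5444 and 5692 with aldosterone and 1685, 1932, 1299 and 1390.0 with spironolactone. Its groups did not overlap, with a log2 fold change of 1.94 ± 0.10 (SE, adjusted p = 4.35e-10), or 3.83-fold. *Per1*, a repressor of the circadian clock that corticosteroids induce, had 2198, 2020.0, 2199.8 and 2106 with aldosterone and 626, 669.8, 720.2 and 718 with spironolactone, a 3.12-fold difference (log2 1.64 ± 0.06, adjusted p = 1.43e-11).

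Enzymes and regulators on the list followed. *Glul* (glutamine synthetase) was 8.48-fold and *Pdk4*, a kinase that shuts pyruvate dehydrogenase, 6.80-fold higher (adjusted p = 3.02e-15 and 1.83e-14). The metallothioneins *Mt1* and *Mt2*, which bind zinc and copper, had log2 fold changes of 1.86 and 3.37 (adjusted p = 3.74e-13 and 8.68e-10). *Sult1a1*, a sulfotransferase, went from 19.3 ± 5.48 with spironolactone to 695 ± 174 with aldosterone (SD, n = 4 each). The other called genes were *Cdkn1c* (2.67), *Klf15* (1.80), *Errfi1* (1.59), *Rgs2* (1.39), *Cebpd* (1.21) and *Klf9* (1.20). *Anxa1*, *Dusp1* and *Nfkbia*, each a brake on inflammatory signalling, were higher by less than 2-fold, with log2 fold changes of 0.88, 0.87 and 0.70 (adjusted p = 1.06e-07, 2.58e-08 and 3.76e-07). The remaining 4 did not pass, *Ddit4* (0.21, adjusted p = 0.0755), *Angptl4* (0.21, adjusted p = 0.665), *Bcl6* (0.15, adjusted p = 0.464) and *Cry1* (-0.20, adjusted p = 0.275). With the replicate block, *Ddit4* passed at any fold (adjusted p = 0.00856).

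**Figure D2:**
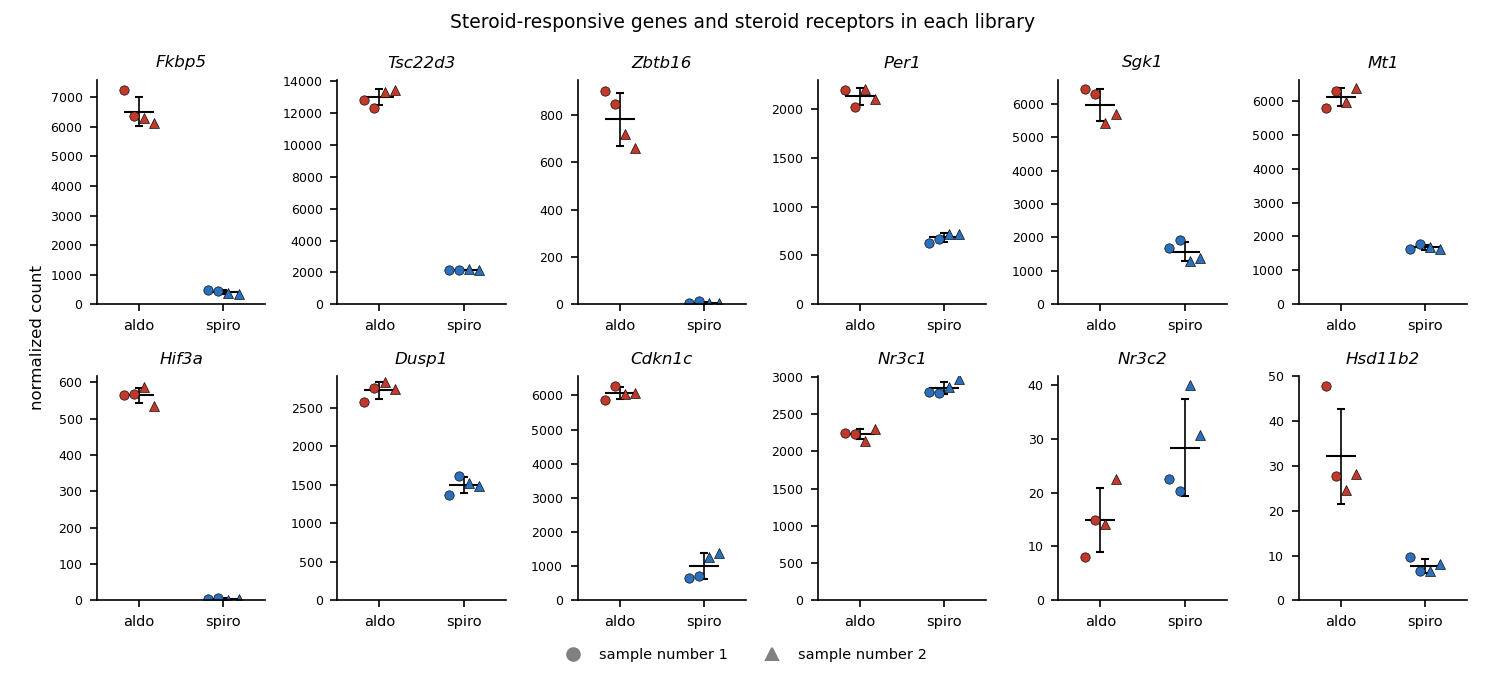
Normalized counts (vertical axes, each from 0) of 12 genes in the 4 aldosterone (red) and 4 spironolactone (blue) libraries. Circles are sample number 1 and triangles sample number 2, and bars give the mean ± SD of each group. The groups are separate in every panel except *Nr3c2*, and *Nr3c1* and *Nr3c2* are the 2 genes with the higher mean with spironolactone.

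The DNA element that MR and the glucocorticoid receptor bind is an inverted repeat, and a relaxed form of it, GNACA and TGTNC with any 3 bases between them, was searched for on both strands in the 250 bases before each annotated start site in RefSeq (GRCm38.p6). The motif was chosen after the genes were known. Its letters share no core with the NF-kB motif searched further on. It was in 127 of 32851 windows (0.387%) over all genes, and in 36 of the 10874 members matched by symbol (0.331%). Among the genes called higher, 8 of the 215 matched held it (3.72%), and among those called lower 0 of 59. The 8 genes are shown with the match in capitals and 15 bases on either side, read 5′ to 3′ along the strand of the gene, because they include *Sgk1* and several of the strongest responses. *Map3k6*, a stress kinase, and *Slc10a6*, a carrier of sulfated steroids, are named for this match alone. *Serpina3c* and *Serpina3n* hold the same letters.
Fam107a (chr14:8309870-8309912, minus strand, log2 fold change 5.74): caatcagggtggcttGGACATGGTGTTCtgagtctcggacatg
Map3k6 (chr4:133240622-133240664, plus strand, log2 fold change 1.93): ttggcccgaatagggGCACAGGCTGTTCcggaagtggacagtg
Mt1 (chr8:94178980-94179022, plus strand, log2 fold change 1.86): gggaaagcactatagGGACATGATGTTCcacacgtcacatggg
Serpina3c (chr12:104153920-104153962, minus strand, log2 fold change 2.38): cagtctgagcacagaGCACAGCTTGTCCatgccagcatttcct
Serpina3n (chr12:104406615-104406657, plus strand, log2 fold change 3.71): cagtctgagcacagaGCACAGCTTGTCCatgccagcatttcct
Sgk1 (chr10:21993687-21993729, plus strand, log2 fold change 1.94): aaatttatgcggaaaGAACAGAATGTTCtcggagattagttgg
Slc10a6 (chr5:103629539-103629581, minus strand, log2 fold change 4.58): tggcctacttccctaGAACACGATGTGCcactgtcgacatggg
Txnip (chr3:96557770-96557812, plus strand, log2 fold change 1.08): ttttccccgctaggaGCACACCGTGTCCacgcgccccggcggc
A match is a description of the sequence, and binding was not measured here.

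For the genes that differed between the steroids, aldosterone lay away from vehicle and spironolactone mostly near it. In the authors' table of spironolactone and vehicle, 0 of 27598 genes were called by limma, although 1251 (4.53%) had an unadjusted p under 0.05. Without a fold threshold the adjusted p passed for 0 genes by limma, 0 by edgeR, 13 by DESeq2 and 97 by limma with the replicate block. The 303 genes higher with aldosterone than with spironolactone had a median log2 fold change of 1.60 between aldosterone and vehicle, a comparison that called 382 genes (1.4%) higher and 182 (0.666%) lower among all genes, and of 0.015 between spironolactone and vehicle, with the middle quartiles of the latter between -0.13 and 0.18. For the 88 lower genes the medians were -1.38 and -0.036. Single called genes ran from -1.25 to 1.19 between spironolactone and vehicle, and the 95% interval excluded 0 for 26 of the 303 and 9 of the 88, with 0 passing the adjusted p. These comparisons share libraries and each table was normalized on its own, so their values are given side by side only. *Fkbp5* had a difference of 4.01 against spironolactone, 4.26 against vehicle, and spironolactone against vehicle gave 0.26 (95% interval 0.02 to 0.50). For *Tsc22d3* the first 2 differences were 2.59 and 2.69, and the third 0.10 (95% interval -0.01 to 0.20). For *Sgk1* they were 1.94 and 1.98, and 0.05 (95% interval -0.18 to 0.28).

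Among the called genes, the 5 with the smallest p between spironolactone and vehicle were *Mt1*, *Tent5b*, *Gm17415*, *Eva1c* and *Znhit6*. *Mt1* stood at 0.35 (95% interval 0.22 to 0.47) in that comparison, with an adjusted p of 0.135 without and 9.81e-05 with the replicate block. *Tent5b*, a poly(A) polymerase, was at 0.46 (95% interval 0.20 to 0.71), *Eva1c* at 0.41 (95% interval 0.10 to 0.73), *Znhit6* at 0.25 (95% interval 0.06 to 0.43) and *Gm17415*, an unnamed gene model, at 1.19 (95% interval 0.36 to 2.02). With the block, 8 of the 303 and 1 of the 88 genes passed at an adjusted p of 0.05, in order *Mt1*, *Pik3r1*, *Mgp*, *Fth1*, *Gas1*, *Angptl7*, *Sfrp2*, *Tent5b* and *Znhit6*, with log2 fold changes from -0.26 (*Pik3r1*) to 0.46 (*Tent5b*). Of these, 7 moved from vehicle in the direction of aldosterone, *Mt1*, *Mgp*, *Fth1*, *Angptl7*, *Tent5b* and *Znhit6* upward and *Sfrp2* downward, and *Pik3r1* and *Gas1* went the opposite way. The spironolactone libraries also chose these genes, which were picked on their difference from aldosterone. *Gm17415* had an adjusted p over 0.05 in 7 of the 8 fits without 1 library (all but aldosterone 1_1), up to 0.174 without spironolactone 2_2, and 0.0136 with the replicate block in the comparison of aldosterone with spironolactone. *Eva1c* came under the fold threshold in the 3 fits without aldosterone 2_1, aldosterone 2_2 and spironolactone 1_2, down to 0.97 in the fit without spironolactone 1_2.

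**Figure D3:**
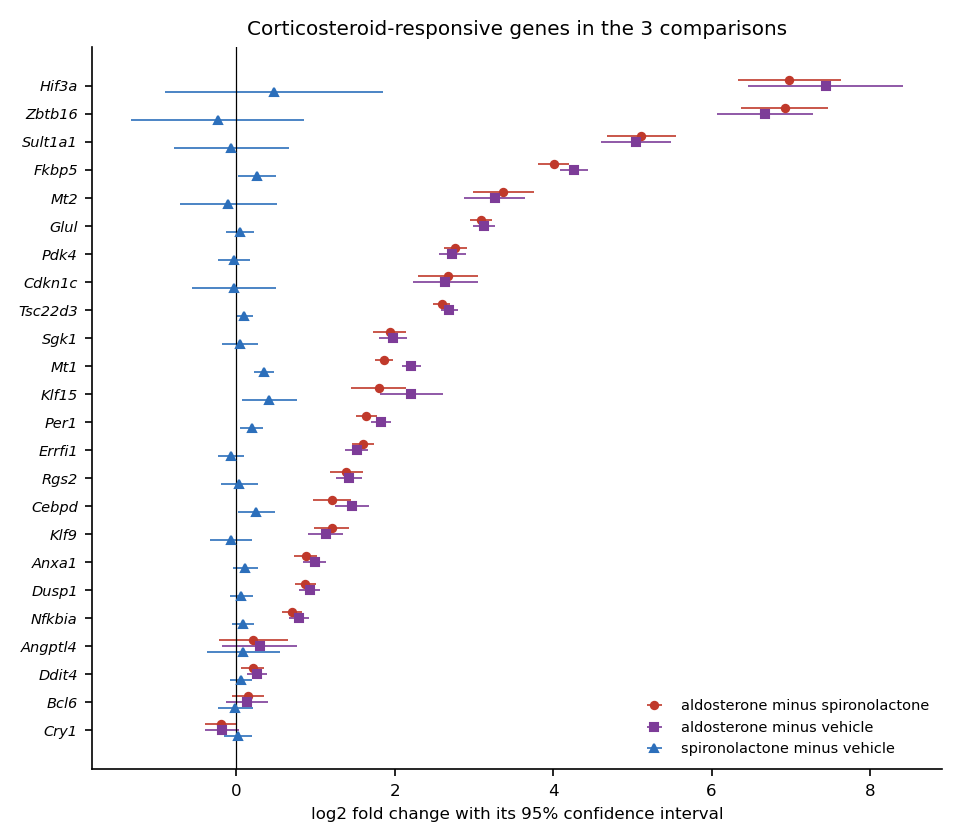
Log2 fold changes with 95% confidence intervals (horizontal axis) of the 24 corticosteroid-responsive genes in the 3 comparisons, from limma on each table. Aldosterone minus spironolactone (red circles) and aldosterone minus vehicle (purple squares) run from under 0 to about 7, while spironolactone minus vehicle (blue triangles) lies between -0.24 and 0.47.

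The receptors themselves were unequal in level. Per kilobase of gene length, *Nr3c1* had 290.4 ± 8.86 normalized counts with aldosterone and 371 ± 10.9 with spironolactone (SD, n = 4), and *Nr3c2* 2.30 ± 0.924 and 4.38 ± 1.38. *Nr3c1* had 2248, 2237, 2138 and 2302 with aldosterone and 2795, 2789, 2861 and 2968 with spironolactone. It was lower with aldosterone in every library, with a log2 fold change of -0.35 ± 0.05 (SE, adjusted p = 1.64e-04). *Nr3c2* had 7.99, 14.9, 14.2 and 22.6 with aldosterone and 22.5, 20.3, 39.95 and 30.6 with spironolactone. Its groups overlapped, and the difference of -0.92 ± 0.36 did not pass (adjusted p = 0.151, 95% interval -1.67 to -0.16). The estrogen receptors *Esr1* and *Esr2* had differences of -0.28 and -0.87 that did not pass (adjusted p = 0.426 and 0.0822).

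Enzymes that set the local supply of glucocorticoid were higher with aldosterone. *Hsd11b2*, which inactivates corticosterone and so guards MR in the kidney, had 47.9, 27.7, 24.6 and 28.2 with aldosterone and 9.65, 6.49, 6.48 and 8.15 with spironolactone. Library 1_1 was the highest and the groups did not overlap, with a log2 fold change of 1.90 ± 0.35 (SE, adjusted p = 0.00129). *Hsd11b1*, which works in the reverse direction, had 70.5, 55.5, 67.2 and 52.4 with aldosterone and 33.2, 44.7, 29.2 and 28.5 with spironolactone, a difference of 0.85 (adjusted p = 0.0207, up to 0.0862 with 1 library left out). *H6pd*, which feeds *Hsd11b1* with its cofactor, was 1.62-fold higher (adjusted p = 4.81e-08). Spironolactone can activate the pregnane X receptor (*Nr1i2*) in liver. Of 19 listed targets of this receptor only 7 were members, and *Nr1i2* itself was not a member, so the list says little of that receptor here. Among the 7, 0 were higher and only *Gsta1* was lower with aldosterone at both thresholds (-1.72, adjusted p = 0.00937). *Gsta1* had 18.6, 14.9, 10.4 and 9.68 with aldosterone and 22.5, 92.5, 30.2 and 64.2 with spironolactone. Of these 7, 3 were higher and 1 lower at any fold, and 3 and 2 with the block. *Gsta1* had an adjusted p over 0.05 in 7 of the 8 fits without 1 library (all but spironolactone 1_1), up to 0.146 without spironolactone 2_2, and 4.27e-04 with the replicate block. *Gsta1* did not differ detectably between spironolactone and vehicle, at 0.17 (95% interval -0.70 to 1.04).

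The sodium transport genes that MR controls in epithelium were partly raised. Of 22 members in this list, 5 were higher and 0 lower at both thresholds, and 8 were higher and 0 lower at any fold, with a median of 0.22. Besides *Sgk1*, the called genes were *Ndrg2*, *Wnk4*, *Slc9a3* and *Atp1b1*. *Ndrg2*, a member of the family of SGK1 substrates, had 1215, 1295, 1379.5 and 1398 with aldosterone and 83.6, 98.2, 97.2 and 90.7 with spironolactone, a 14.2-fold difference (adjusted p = 5.98e-15). *Wnk4*, a kinase that regulates sodium chloride transport, had 999.6, 802, 947 and 751 with aldosterone and 196, 205, 253 and 169 with spironolactone (log2 2.09, adjusted p = 1.28e-09). Neither gene had overlapping groups. *Atp1b1*, the beta subunit of the sodium pump, was 2.44-fold higher (adjusted p = 1.63e-06). *Slc9a3*, a sodium-proton exchanger, had 49.2, 56.4, 22.7 and 9.68 with aldosterone and 11.8, 15.4, 3.24 and 3.06 with spironolactone, and its groups overlapped. *Slc9a3* had an adjusted p over 0.05 in all 8 fits without 1 library, up to 0.307 without aldosterone 1_2, and 2.95e-04 with the replicate block.

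Genes of the renin-angiotensin system and of vasoactive peptides moved too. In this list of 21 members, 4 were higher and 1 lower at both thresholds, and 9 were higher and 2 lower at any fold. *Ace*, the enzyme that makes angiotensin II, had 643, 635, 896 and 831 with aldosterone and 79.4, 64.1, 76.7 and 113 with spironolactone, with a log2 fold change of 3.17 ± 0.15 (SE, adjusted p = 2.07e-10), or 9.01-fold. *Agt*, the precursor of angiotensin, had 208, 245, 351 and 355 with aldosterone and 41.8, 40.6, 92.9 and 110.1 with spironolactone, with sample number 2 the higher one in both groups and a log2 fold change of 2.11 ± 0.27 (SE, adjusted p = 4.26e-05). *Ramp2*, a partner of the adrenomedullin receptor, was 6.35-fold higher (adjusted p = 2.51e-12). *Ednrb*, the endothelin B receptor, was lower, with 21.3, 18.8, 20.8 and 28.2 with aldosterone and 65.4, 64.9, 64.8 and 68.3 with spironolactone and a log2 fold change of -1.54 ± 0.22 (SE, adjusted p = 1.36e-04). No library of either group reached the other for *Ace*, *Agt*, *Ramp2* or *Ednrb*. *Ramp3* was also called (1.498, adjusted p = 0.0476). *Ramp3* had an adjusted p over 0.05 in 7 of the 8 fits without 1 library (all but spironolactone 2_2), up to 0.213 without aldosterone 1_2, and 0.0172 with the replicate block.

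**Figure D4:**
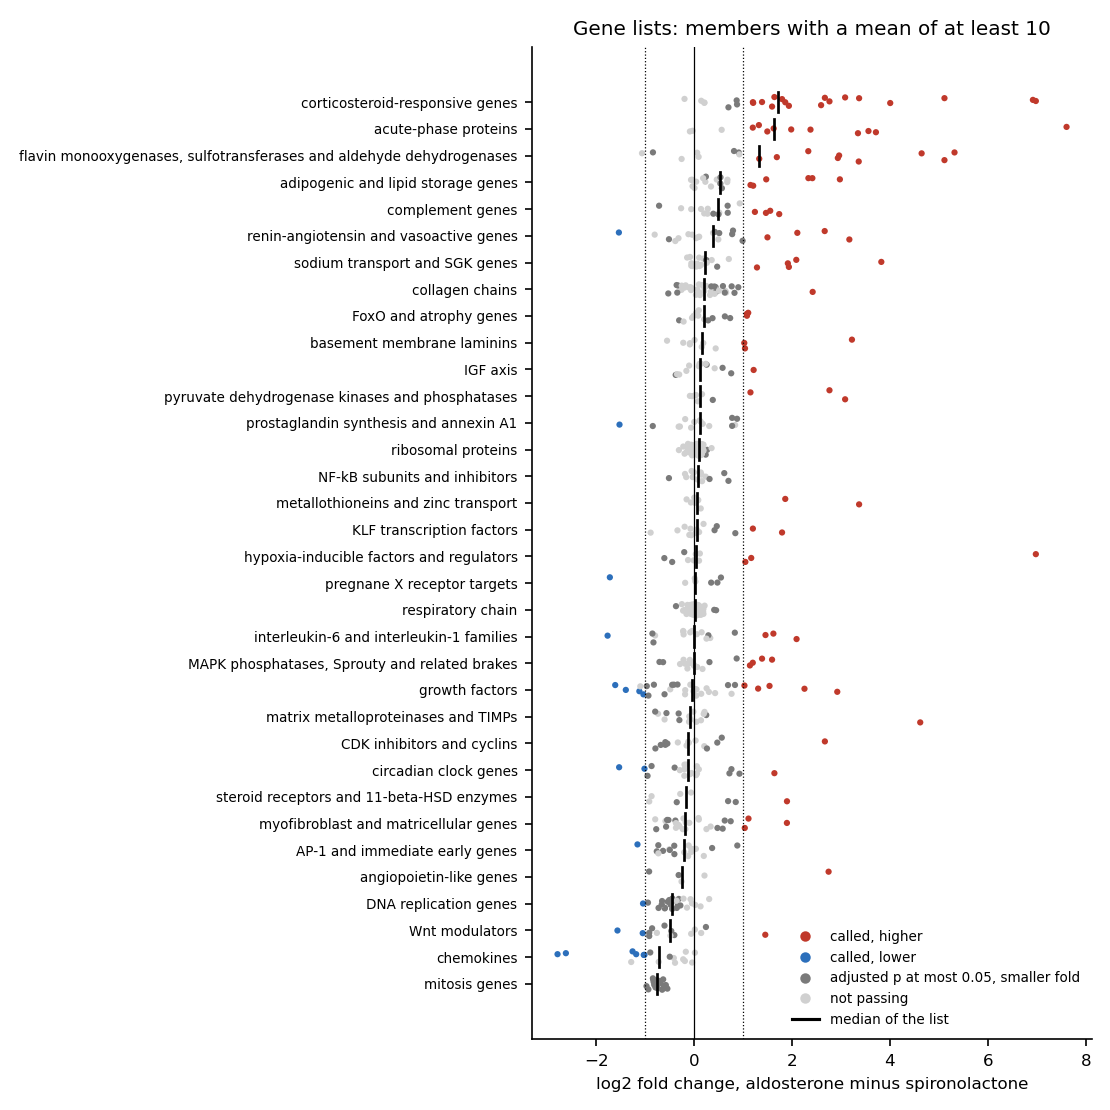
Log2 fold changes between aldosterone and spironolactone (horizontal axis) of the members of 34 gene lists (rows, ordered by their median, black bars). Red points passed both thresholds as higher and blue points as lower, dark grey points passed the adjusted p only and light grey points did not pass. The median is highest for the corticosteroid-responsive genes (1.72) and lowest for the mitosis genes (-0.75), where every point lies left of 0. The lists were chosen with earlier results of these data known. The row named for flavin monooxygenases, sulfotransferases and aldehyde dehydrogenases also holds *Dpep1*, *Xdh* and *Gpx3*.

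The largest increase of all was in an acute-phase gene. *Serpina3m*, a serine protease inhibitor, had 252, 309, 306 and 319 with aldosterone and 0, 1.62, 0 and 1.02 with spironolactone. With 1219 reads in the aldosterone libraries against 3 in the spironolactone libraries, the ratio was 408 (95% counting interval 139 to 1979.7), and limma gave a log2 fold change of 7.61 ± 0.36 (SE, adjusted p = 1.57e-10). Next to it on chromosome 12, *Serpina3n* had 4496, 4811, 5506 and 5850.0 with aldosterone and 345, 443, 365 and 417 with spironolactone, a 13.1-fold difference (adjusted p = 1.32e-14). *Serpina3c* and *Serpina3f* of the same cluster had log2 fold changes of 2.38 and 1.32. These copies are alike in sequence, so reads could be split among them. Of the 13 members of the acute-phase list, 10 were higher and 0 lower at both thresholds, and 10 were higher and 0 lower at any fold, with a median of 1.63. *Lcn2*, an iron-binding lipocalin, had 693, 821, 903 and 909.7 with aldosterone and 49.3, 69.01, 83.1 and 80.5 with spironolactone (log2 3.56, adjusted p = 2.32e-11). *Hp*, haptoglobin, had 845, 810.0, 1309 and 1294 with aldosterone and 72.9, 67.4, 136 and 156 with spironolactone (log2 3.35, adjusted p = 1.89e-08). The groups were apart for both, and *Hp* was higher in sample number 2 under either steroid. The others were *Saa3* (1.98), *A2m* (1.63), *Cp* (1.495) and *Lbp* (1.20). *Serpina3f* had an adjusted p over 0.05 in 7 of the 8 fits without 1 library (all but aldosterone 1_2), up to 0.0975 without spironolactone 1_2, and 0.00976 with the replicate block. *A2m* had an adjusted p over 0.05 in the 4 fits without aldosterone 1_2, aldosterone 2_1, spironolactone 1_1 and spironolactone 2_2, up to 0.0584 without aldosterone 2_1, and 9.13e-04 with the replicate block.

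Complement genes leaned the same way. Of 17 members, 4 were higher and 0 lower at both thresholds, and 8 were higher and 1 lower at any fold, with a median of 0.50. *C3*, the central component, had 938, 807, 1415 and 1451 with aldosterone and 281, 282, 396 and 396 with spironolactone, with a log2 fold change of 1.74 ± 0.17 (SE, adjusted p = 1.15e-06). *C4b*, of the classical pathway, was 2.36-fold higher (adjusted p = 8.53e-09). *C4bp* was called at low counts (1.554, adjusted p = 0.0364). *C4bp* had an adjusted p over 0.05 in 7 of the 8 fits without 1 library (all but spironolactone 1_1), up to 0.131 without aldosterone 2_1, and 0.0169 with the replicate block. The summed leukocyte markers given above overlapped between the groups (exact permutation test, p = 0.229), and their part in these values was not tested.

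Chemokines went the other way. Of 17 members, 0 were higher and 6 lower at both thresholds, and 0 were higher and 8 lower at any fold, with a median of -0.72. Of the called genes, *Cxcl5*, *Ppbp*, *Cxcl3*, *Cxcl15* and *Cxcl1*, which attract neutrophils, are consecutive members in 1 cluster on chromosome 5. *Cxcl5* (chromosome 5, 90907219 to 90909483) had 466, 566, 612 and 768 with aldosterone and 1179, 1593, 1448 and 1496 with spironolactone. Every aldosterone library was lower, with a log2 fold change of -1.26 ± 0.12 (SE, adjusted p = 1.16e-06). *Cxcl1* had 37.3, 54.5, 41.6 and 56.5 with aldosterone and 92.2, 112, 96.1 and 83.6 with spironolactone (log2 -1.01, adjusted p = 0.00148). *Cxcl3* showed the largest decrease among all members, with 3.99, 3.96, 2.84 and 0 with aldosterone and 19.3, 26.8, 22.7 and 15.3 with spironolactone and a log2 fold change of -2.79 ± 0.53 (SE, adjusted p = 0.00182). The groups were apart for each of these, at low levels for *Cxcl3*. *Cxcl15* (-2.62) and *Ppbp* (-1.18) were lower too, with at most 54.01 in any library. *Cxcl14*, which lies elsewhere on chromosome 13, had 1505, 1582, 766 and 723 with aldosterone and 3176, 3309.8, 1582 and 1379.8 with spironolactone. Sample number 1 was about 2-fold above sample number 2 under both steroids and the groups overlapped, while the log2 fold changes within the numbers were close (-1.07 and -0.99). *Cxcl14* had an adjusted p over 0.05 in all 8 fits without 1 library, up to 0.342 without spironolactone 1_2, and 1.99e-17 with the replicate block. *Cxcl15* had an adjusted p over 0.05 in all 8 fits without 1 library, up to 0.243 without spironolactone 2_2, and 8.92e-05 with the replicate block. *Ppbp* had an adjusted p over 0.05 in 7 of the 8 fits without 1 library (all but spironolactone 2_2), up to 0.102 without spironolactone 1_1, and 0.0101 with the replicate block. *Cxcl3* had an adjusted p over 0.05 in 1 of the 8 fits without 1 library, that without spironolactone 1_2, at 0.0567, and 6.03e-05 with the replicate block. *Cxcl1* came under the fold threshold in the 3 fits without aldosterone 1_1, aldosterone 2_1 and spironolactone 1_2, down to -0.91 in the fit without aldosterone 1_1. With the block, 7 chemokines were called lower and 11 passed at any fold.

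A consensus of the NF-kB element, GGGA and TTTCC with any base between them, was also looked for in the same windows, again after the genes were known. It was in 117 of 32851 windows (0.356%), in 45 of the 10874 matched members (0.414%), in 1 of the 215 matched higher genes and in 2 of the 59 matched lower genes (3.39%). The 2 lower genes were *Cxcl1* and *Cxcl3* of the lowered chemokine cluster, shown with the match in capitals. They do not stand for the whole cluster, since no match was found for *Cxcl5*, *Ppbp* or *Cxcl15*. Of the 17 chemokine members, 13 had a window, and 2 of these held the motif (15.4%).
Cxcl1 (chr5:90891159-90891198, plus strand, 61 bases before the start site): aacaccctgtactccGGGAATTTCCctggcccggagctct
Cxcl3 (chr5:90786013-90786052, plus strand, 63 bases before the start site): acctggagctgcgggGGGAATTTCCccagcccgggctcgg
Both carry the same 10 letters at nearly the same distance from the start site. The higher gene with a match was *Slc6a12*, a betaine transporter, named here after its value was seen.

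Signalling genes of inflammation gave a mixed picture. *Ptgs2* (COX-2), the inducible enzyme of prostaglandin synthesis, had 474, 452, 228 and 209 with aldosterone and 1173, 1324, 648 and 699 with spironolactone. It was lower with aldosterone in both sample numbers and the groups did not overlap, with a log2 fold change of -1.52 ± 0.25 (SE, adjusted p = 5.16e-04). *Ptgs2* had an adjusted p over 0.05 in the 4 fits without aldosterone 2_1, aldosterone 2_2, spironolactone 1_1 and spironolactone 1_2, up to 0.0981 without spironolactone 1_2, and 7.10e-19 with the replicate block. The list of 15 prostaglandin genes held no other call at both thresholds, while 3 were higher and 2 lower at any fold, and 4 and 4 with the block. In the list of interleukin-6 and interleukin-1 families, 3 were higher and 1 lower at both thresholds, and 5 were higher and 3 lower at any fold among 18 members. *Il1rn*, the natural antagonist of interleukin-1, was 2.75-fold higher (adjusted p = 1.83e-09), with 8349.5, 9142, 9995 and 10841 with aldosterone and 2952, 3561, 3644 and 3787 with spironolactone. *Il6ra*, the interleukin-6 receptor, was 3.07-fold higher and *Il31ra* had a log2 fold change of 2.09 (adjusted p = 1.53e-07 and 4.17e-04). *Il1rl1* (ST2), the receptor of interleukin-33, was lower, with 232, 181, 228 and 262 with aldosterone and 662, 735, 789 and 889.6 with spironolactone and a log2 fold change of -1.77 ± 0.11 (SE, adjusted p = 6.40e-09). None of the 15 members of the NF-kB list was called at both thresholds, and 3 were higher and 1 lower at any fold. The 4 with the smallest p were *Nfkbia* (0.70, adjusted p = 3.76e-07), *Nfkbiz* (0.62, adjusted p = 8.83e-05), *Rel* (-0.51, adjusted p = 0.00254) and *Ikbke* (0.32, adjusted p = 0.0160). In *Rel* and *Ikbke* the adjusted p rose over 0.05 with 1 library left out, up to 0.0512 and 0.0887.

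**Figure D5:**
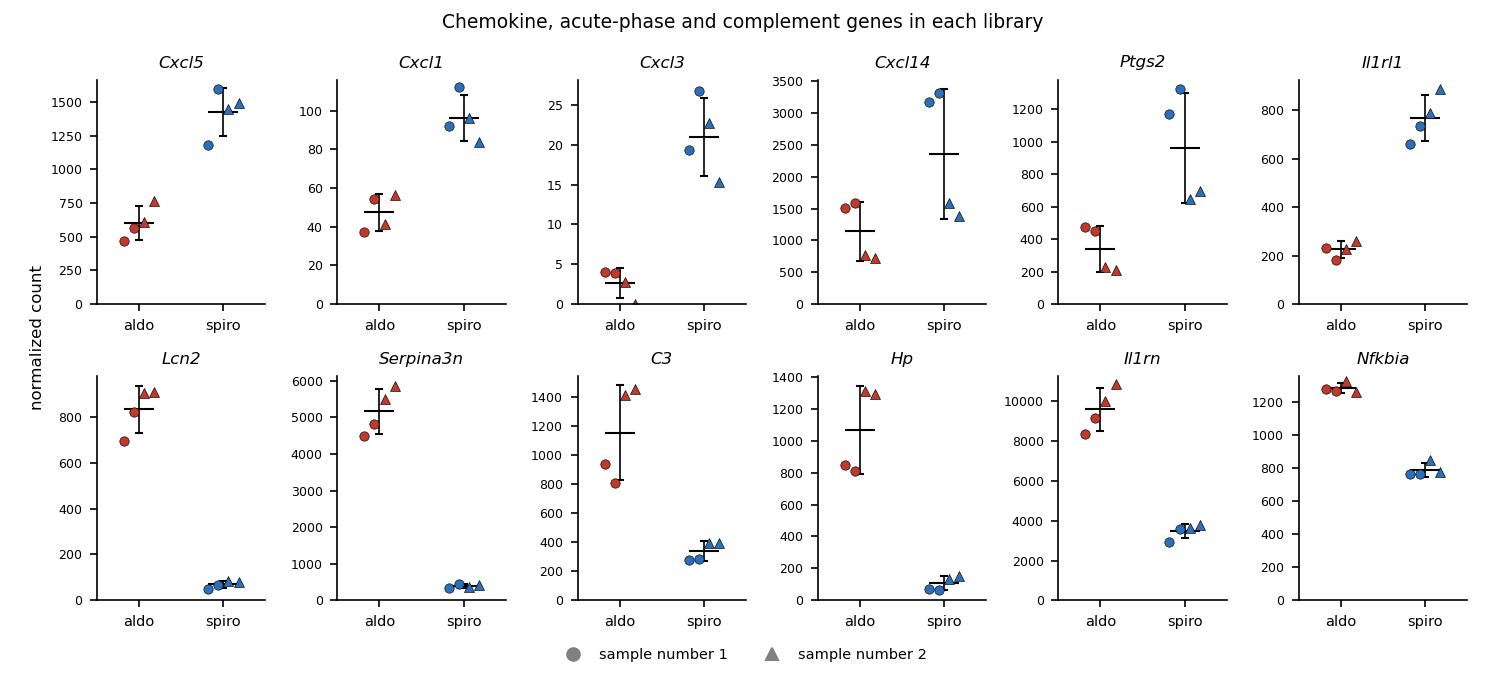
Normalized counts (vertical axes, each from 0) of 12 chemokine, acute-phase, complement and related genes in the 4 aldosterone (red) and 4 spironolactone (blue) libraries, with circles for sample number 1, triangles for sample number 2 and bars for the mean ± SD. *Cxcl5*, *Cxcl1*, *Cxcl3*, *Cxcl14*, *Ptgs2* and *Il1rl1* are lower with aldosterone and the other 6 genes higher, and *Cxcl14* alone has overlapping groups.

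Mitosis genes were lower with aldosterone, each by less than 2-fold. All 25 mitosis genes were lower at an adjusted p of at most 0.05, against 6.78% of all members, with log2 fold changes from -0.97 to -0.55 and a median of -0.75. Every aldosterone library was below every spironolactone library in all 25, against 9.92% of all members. *Top2a*, which untangles DNA, had 1999, 2138, 1839 and 1866 with aldosterone and 3567, 3562, 3459.5 and 3447 with spironolactone, with a log2 fold change of -0.84 ± 0.06 (SE, adjusted p = 2.13e-08). *Mki67*, the marker of cycling cells, had 1824, 1946, 1688 and 1754 with aldosterone and 3100.2, 3078, 3184 and 3433 with spironolactone, with a log2 fold change of -0.83 ± 0.06 (SE, adjusted p = 3.79e-08). *Kif11* and *Prc1*, of the mitotic spindle, had -0.79 and -0.75 (adjusted p = 2.54e-07 and 2.80e-07). Between spironolactone and vehicle the 25 genes had a median of 0.06, from -0.03 to 0.17, with 0 passing. Among 30 DNA replication genes, 0 were higher and 1 lower at both thresholds, and 0 were higher and 20 lower at any fold, with a median of -0.46, and 2 and 23 passed at any fold with the block. *Mcm10*, which starts the replication fork, was the called one, with 129, 104, 119 and 122 with aldosterone and 225, 261, 249 and 245 with spironolactone. Without aldosterone 1_2, *Mcm10* came under the fold threshold, at -0.98.

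*Cdkn1c* (p57), an inhibitor of cyclin-dependent kinases, was the 1 called gene among 15 CDK inhibitors and cyclins. It had 5874, 6277, 6049 and 6069 with aldosterone and 644, 718, 1283 and 1381 with spironolactone, with a log2 fold change of 2.67 ± 0.18 (SE, adjusted p = 1.33e-08), or 6.37-fold. In that list 4 were higher and 5 lower at any fold. The aldosterone libraries of *Cdkn1c* were alike, while sample number 2 was above sample number 1 with spironolactone. Of the 19 genes of the MAPK brakes, 4 were higher and 0 lower at both thresholds, and 6 were higher and 2 lower at any fold. *Errfi1* (MIG6), which blocks the EGF receptor, was 3.01-fold, *Rgs2* 2.62-fold, *Dusp14* 2.29-fold and *Rasa3* 2.20-fold higher (adjusted p = 2.66e-11, 2.95e-08, 2.41e-07 and 1.52e-09). In the AP-1 and immediate early list of 19, 0 were higher and 1 lower at both thresholds, and 2 were higher and 7 lower at any fold, the called gene being the orphan receptor *Nr4a3*, with overlapping groups (-1.16, adjusted p = 0.0310). *Nr4a3* had an adjusted p over 0.05 in 7 of the 8 fits without 1 library (all but spironolactone 2_1), up to 0.191 without spironolactone 1_1, and 0.00567 with the replicate block.

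A few matrix genes changed by 2-fold or more. Among 38 collagen chains, 1 was higher and 0 lower at both thresholds, against 1.98% and 0.575% of all members. With 38 chains, 1 call is near the share of all members. At any fold 10 were higher and 4 lower, against 8.39% and 6.78% of all members, and with the block the counts were 17 and 6. The called chain was *Col24a1*, a fibril-forming collagen, with 365, 337, 302 and 278 with aldosterone and 57.9, 59.3, 69.1 and 49.9 with spironolactone and a log2 fold change of 2.42 ± 0.13 (SE, adjusted p = 1.32e-09). *Timp4*, an inhibitor of matrix metalloproteinases, had 117, 134, 100.3 and 138 with aldosterone and 5.36, 6.49, 3.24 and 2.04 with spironolactone, with a log2 fold change of 4.62 ± 0.32 (SE, adjusted p = 2.58e-08), and was the 1 called gene of 16 metalloproteinases and TIMPs, of which 2 were higher and 4 lower at any fold. *Timp4* overlaps *Syn2*, also called (2.72), and where genes overlap the counts may share reads, since the use of strand is not given in the sources used here. Of the 27 myofibroblast and matricellular genes, 3 were higher and 0 lower at both thresholds, and 7 were higher and 5 lower at any fold, and 8 and 14 with the block. *Postn* (periostin) had 75831, 74083, 59502 and 61506 with aldosterone and 19514, 21066, 16024 and 16282 with spironolactone, with a log2 fold change of 1.90 ± 0.10 (SE, adjusted p = 4.84e-10). *Cilp* and *Spp1* (osteopontin) were 2.16-fold and 2.05-fold higher (adjusted p = 5.63e-05 and 1.02e-07). The laminin chains *Lamc3*, *Lama3* and *Lama2* were the 3 called of 11, with 3.22, 1.04 and 1.02, and no other passed at any fold, against 6 and 1 higher and lower with the block. *Lama3* had an adjusted p over 0.05 in 7 of the 8 fits without 1 library (all but spironolactone 2_2), up to 0.227 without spironolactone 1_1, and 1.42e-05 with the replicate block. Without spironolactone 2_2, *Cilp* came under the fold threshold, at 0.98. Without spironolactone 1_1, *Spp1* came under the fold threshold, at 0.96. *Lama2* came under the fold threshold in the 3 fits without aldosterone 1_1, spironolactone 2_1 and spironolactone 2_2, down to 0.93 in the fit without spironolactone 2_1.

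Of the 15 Wnt modulators, 1 was higher and 2 lower at both thresholds, and 2 were higher and 8 lower at any fold. *Sfrp2*, a secreted Wnt antagonist, had 3934, 4291, 5915 and 5607 with aldosterone and 8743, 9459, 10671 and 11673 with spironolactone, with a log2 fold change of -1.05 ± 0.11 (SE, adjusted p = 5.07e-06). *Sfrp4* was lower with overlapping groups (-1.57) and *Ndp*, a Wnt pathway ligand, higher (1.45, adjusted p = 0.0370 and 0.0129). *Sfrp4* had an adjusted p over 0.05 in 7 of the 8 fits without 1 library (all but aldosterone 2_2), up to 0.262 without spironolactone 2_2, and 0.00129 with the replicate block. *Ndp* had an adjusted p over 0.05 in 7 of the 8 fits without 1 library (all but aldosterone 1_1), up to 0.0762 without aldosterone 2_2, and 0.00285 with the replicate block. *Sfrp2* came under the fold threshold in the 3 fits without aldosterone 1_1, aldosterone 1_2 and spironolactone 2_2, down to -0.95 in the fit without aldosterone 1_1.

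Growth factors were divided. Among 32 members, 5 were higher and 4 lower at both thresholds, and 7 were higher and 11 lower at any fold. *Tgfa*, a ligand of the EGF receptor, had 740.0, 689, 786 and 783 with aldosterone and 78.3, 78.7, 122 and 121 with spironolactone, with a log2 fold change of 2.92 ± 0.14 (SE, adjusted p = 1.61e-10). *Vegfd* and *Vegfc*, ligands for lymphatic vessels, were 2.91-fold and 2.04-fold higher (adjusted p = 2.32e-11 and 1.70e-06), and *Fgf14* and *Angpt2* had 2.25 and 1.31. *Hgf*, hepatocyte growth factor, which activates satellite cells in muscle, was lower, with 382, 418, 362 and 323 with aldosterone and 1094, 997, 874 and 946 with spironolactone and a log2 fold change of -1.39 ± 0.09 (SE, adjusted p = 7.05e-09). The groups of *Tgfa* and *Hgf* were far apart. *Gdf15*, *Fgf5* and *Fgf21* were also lower, with -1.04, -1.12 and -1.61 (adjusted p = 3.46e-06, 0.00308 and 0.00104). Of the IGF axis, *Igfbp3* alone was called among 14 members, 2.32-fold higher (adjusted p = 9.09e-09), while 4 were higher and 1 lower at any fold, and 6 and 3 with the block. *Angpt2* had an adjusted p over 0.05 in 7 of the 8 fits without 1 library (all but spironolactone 2_1), up to 0.153 without aldosterone 2_2, and 0.0147 with the replicate block. *Vegfc* came under the fold threshold in the 2 fits without aldosterone 2_2 and spironolactone 2_2, down to 0.97 in the fit without aldosterone 2_2. *Gdf15* came under the fold threshold in the 2 fits without aldosterone 2_2 and spironolactone 1_2, down to -0.93 in the fit without spironolactone 1_2. Without spironolactone 1_1, *Fgf5* came under the fold threshold, at -0.99.

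Several enzymes that handle foreign compounds and aldehydes were higher with aldosterone. Their list held 14 flavin monooxygenases, sulfotransferases and aldehyde dehydrogenases, of which 6 were higher and 0 lower at both thresholds and 8 and 1 at any fold, with a median of 0.92. It also held 3 other enzymes, *Dpep1*, *Xdh* and *Gpx3*, all called higher. *Fmo2* had 157, 147, 162 and 153 with aldosterone and 3.22, 0.812, 3.24 and 6.11 with spironolactone, with a log2 fold change of 5.32 ± 0.36 (SE, adjusted p = 1.82e-08). Its neighbour *Fmo1* had 417, 433, 666 and 661 with aldosterone and 28.95, 26.8, 89.6 and 93.8 with spironolactone, with sample number 2 higher in both groups and a log2 fold change of 3.36 ± 0.33 (SE, adjusted p = 1.54e-06). *Aldh1a1*, which makes retinoic acid, had 5526, 5898, 6734 and 7350.0 with aldosterone and 721, 759.9, 853 and 932 with spironolactone, with a log2 fold change of 2.96 ± 0.09 (SE, adjusted p = 4.02e-13). None of these had overlapping groups. *Dpep1*, a dipeptidase that cleaves leukotriene D4, had 2568, 2753, 2470.4 and 2527 with aldosterone and 87.9, 114, 109 and 98.8 with spironolactone, with a log2 fold change of 4.65 ± 0.08 (SE, adjusted p = 7.56e-16). The remaining called genes were *Sult1a1* (5.11), *Sult5a1* (2.94), *Xdh* (2.33), *Aldh1a7* (1.69) and *Gpx3* (1.33). *Aldh1a7* had an adjusted p over 0.05 in the 2 fits without aldosterone 2_1 and aldosterone 2_2, up to 0.0507 without aldosterone 2_2, and 1.39e-10 with the replicate block.

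Genes of lipid storage and fuel choice were higher in part. In the adipogenic list of 21, 6 were higher and 0 lower at both thresholds, and 10 were higher and 0 lower at any fold. *Fabp4*, a fatty acid carrier, had 893, 827, 762 and 920.2 with aldosterone and 143, 153, 191 and 188 with spironolactone, with a log2 fold change of 2.33 ± 0.10 (SE, adjusted p = 6.57e-11), and *Plin4*, a lipid droplet coat protein, was 2.22-fold higher (adjusted p = 1.20e-08). *Plin1* and *Cidec*, both of lipid droplets, were called at low counts beside *Cebpd* given above. The summed level of the 6 adipocyte markers was 966 to 1239 with aldosterone and 189.8 to 354 with spironolactone (exact permutation test, p = 0.0286), mostly through *Fabp4*, with *Lep* under 1, and the part of adipocyte-like cells in these values was not tested. *Plin1* had an adjusted p over 0.05 in 7 of the 8 fits without 1 library (all but spironolactone 2_2), up to 0.226 without spironolactone 1_2, and 5.33e-06 with the replicate block. *Cidec* had an adjusted p over 0.05 in 6 of the 8 fits without 1 library (all but aldosterone 1_2 and spironolactone 2_2), up to 0.148 without spironolactone 1_2, and 3.06e-05 with the replicate block. Besides *Pdk4* and *Glul*, *Pdp1*, a phosphatase that reactivates pyruvate dehydrogenase, was 2.22-fold higher with sample number 2 above sample number 1 under both steroids. *Pdp1* had an adjusted p over 0.05 in 6 of the 8 fits without 1 library (all but aldosterone 1_1 and spironolactone 2_2), up to 0.147 without spironolactone 1_2, and 6.05e-19 with the replicate block. Of the FoxO and atrophy genes, *Txnip*, *Pik3r1* and *Sesn1* were called of 15, with 1.08, 1.08 and 1.11, and 7 were higher and 1 lower at any fold (8 and 2 with the block). Beside *Hif3a*, *Epas1* (HIF-2 alpha) and *Egln3*, an oxygen sensor, were 2.24-fold and 2.07-fold higher (adjusted p = 7.14e-07 and 2.79e-04), and of the 11 members of this list 3 were higher and 3 lower at any fold. *Txnip* came under the fold threshold in the 2 fits without aldosterone 2_1 and aldosterone 2_2, down to 0.98 in the fit without aldosterone 2_2. *Pik3r1* came under the fold threshold in the 3 fits without aldosterone 2_1, aldosterone 2_2 and spironolactone 1_2, down to 0.98 in the fit without aldosterone 2_1. *Egln3* came under the fold threshold in the 2 fits without aldosterone 1_1 and spironolactone 1_1, down to 0.94 in the fit without spironolactone 1_1.

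Housekeeping lists stayed near 0 between the 2 steroids. None of 78 ribosomal protein genes or 96 respiratory chain genes was called, with medians of 0.10 and 0.02 and log2 fold changes from -0.31 to 0.36 and from -0.37 to 0.45. The small differences of the ribosomal protein genes were mostly of 1 sign, with 65 of the 78 above 0. Of the 96 respiratory chain genes 57 were above 0, against 7507 of the 15300 members. At any fold, 2 ribosomal protein genes were higher and 0 lower, and 18 and 0 with the replicate block. Of the respiratory chain genes, 2 were higher and 1 lower at any fold, and 5 and 2 with the block. Against vehicle, the ribosomal protein genes had medians of 0.26 with aldosterone and 0.16 with spironolactone, and the respiratory chain genes 0.15 and 0.14. Between spironolactone and vehicle, 75 of the 78 and 90 of the 96 were above 0, against 7761 of the 15300 members. In that comparison 0 of them passed the adjusted p, and the cause was not tested. Of the 9 members for metallothioneins and zinc transport, only *Mt1* and *Mt2* passed without the block.

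Transcription factors made up 11 of the higher and 3 of the lower genes, while 1039 of the 15300 members carry this annotation. The largest increases were *Hif3a*, *Zbtb16*, *Tsc22d3*, *Klf15* and *Gm6710*, a zinc finger gene model. *Klf15* and *Klf9*, both known targets of corticoid receptors, were the 2 called of 15 KLF factors, of which 5 were higher and 0 lower at any fold (5 and 1 with the block). *Klf15* had 715, 893, 1327 and 1226 with aldosterone and 243, 247, 321 and 367 with spironolactone, with sample number 2 the higher one in both groups and a log2 fold change of 1.80 ± 0.16 (SE, adjusted p = 7.14e-07). The 3 lower factors were *Dbp*, *Meox1* and *Nr4a3*. *Dbp*, an output gene of the clock, had 99.8, 151, 149 and 143 with aldosterone and 327, 386, 431 and 418 with spironolactone, with a log2 fold change of -1.53 ± 0.13 (SE, adjusted p = 3.72e-07). *Meox1*, a homeobox factor, had 161, 175, 281 and 263 with aldosterone and 529.8, 481, 682 and 597 with spironolactone, with a log2 fold change of -1.41 ± 0.16 (SE, adjusted p = 7.24e-06). The groups did not overlap for *Klf15*, *Dbp* or *Meox1*. Of 20 clock genes, 1 was higher and 2 lower at both thresholds, and 4 were higher and 5 lower at any fold, and *Per1* and *Per3* went opposite ways (1.64 and -1.01, adjusted p = 1.43e-11 and 5.58e-05). *Gm6710* had an adjusted p over 0.05 in 1 of the 8 fits without 1 library, that without spironolactone 1_2, at 0.0508, and 3.30e-05 with the replicate block. *Per3* came under the fold threshold in the 4 fits without aldosterone 1_1, aldosterone 1_2, spironolactone 2_1 and spironolactone 2_2, down to -0.93 in the fit without aldosterone 1_1.

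Among the genes called at both thresholds, the largest gains in counts were in *Gsn*, *Postn*, *Gas6*, *Fth1* and *Gas1*. *Gsn*, gelsolin, which severs actin filaments, had 77629, 78563, 88472 and 87533 with aldosterone and 25047, 27340.0, 26953 and 27057 with spironolactone. *Gas6*, the ligand of TAM receptors, had 70279, 70252, 59611 and 59176 with aldosterone and 27859, 28783, 22105 and 21659 with spironolactone. Every aldosterone library was above every spironolactone library for both, with log2 fold changes of 1.64 ± 0.07 and 1.38 ± 0.10 (SE, adjusted p = 3.48e-11 and 2.58e-08). *Fth1*, the ferritin heavy chain that stores iron, and *Gas1*, a growth arrest gene, were 2.58-fold and 2.27-fold higher. The largest losses among the called genes were in *Penk*, *Igsf10*, *Sfrp2*, *Tnfrsf11b* and *Aqp1*. *Igsf10* had 3966, 3847, 3913 and 3815 with aldosterone and 9879.8, 9666, 9534 and 9558 with spironolactone, with a log2 fold change of -1.31 ± 0.05 (SE, adjusted p = 1.03e-11). *Tnfrsf11b*, osteoprotegerin, a decoy receptor that restrains osteoclasts, had 1688, 1874, 1784 and 1869 with aldosterone and 4510.4, 4700.5, 4155 and 4252 with spironolactone, with a log2 fold change of -1.29 ± 0.06 (SE, adjusted p = 9.98e-11). Neither had overlapping groups, and *Aqp1*, a water channel, fell by 1.11 on the log2 scale (adjusted p = 1.35e-07). *Penk*, proenkephalin, had 7006, 8023, 18179.5 and 18479.8 with aldosterone and 15089, 17728, 33864 and 35228 with spironolactone. Sample number 2 was about 2-fold above sample number 1 under both steroids, and the difference was -1.13 in number 1 and -0.91 in number 2. *Penk* had an adjusted p over 0.05 in all 8 fits without 1 library, up to 0.390 without aldosterone 1_2, and 1.30e-17 with the replicate block. *Igsf10* overlaps the called gene *Med12l* (-1.52), so the counts of this pair may share reads.

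Other genes among the 10 largest increases were *Fam107a*, *Gm45397* and *Qrfpr*. *Fam107a*, an actin-associated stress gene, had 66.6, 77.2, 73.8 and 102 with aldosterone and 0, 4.06, 0 and 0 with spironolactone. Its 5 reads with spironolactone, against 333 with aldosterone, gave a ratio of 66.8 (95% counting interval 28.3 to 207). *Qrfpr*, a neuropeptide receptor, had 216 and 4 reads, a ratio of 54.2 (20.9 to 200.7). *Gm45397*, an unnamed gene model, had 150.4, 203, 201 and 215 with aldosterone and 4.29, 4.06, 10.8 and 5.10 with spironolactone. Among the 10 largest decreases, *Tph2*, the neuronal enzyme of serotonin synthesis, had 6.66, 6.93, 3.78 and 3.23 with aldosterone and 41.8, 54.4, 35.6 and 24.5 with spironolactone, with a log2 fold change of -2.70 ± 0.38 (SE, adjusted p = 1.04e-04). *Gjb2*, connexin 26, had 15.97, 20.8, 11.4 and 13.7 with aldosterone and 94.4, 107, 57.2 and 67.3 with spironolactone, with a log2 fold change of -2.31 ± 0.27 (SE, adjusted p = 1.51e-05). *F13a1*, a subunit of clotting factor XIII that cross-links fibrin, had 41.3, 66.3, 17.98 and 18.5 with aldosterone and 184, 219, 113 and 113 with spironolactone, with sample number 1 above sample number 2 in both groups and a log2 fold change of -2.24 ± 0.34 (SE, adjusted p = 2.27e-04). *Nts* (neurotensin), *Ndst3*, *1520401A03Rik*, *Epha5* and *Ano5* had -2.12, -2.68, -1.92, -1.89 and -1.88. *Ano5* encodes a membrane protein whose loss causes a muscular dystrophy in humans. Groups were apart for all of these by the way they were chosen. *F13a1* had an adjusted p over 0.05 in the 2 fits without spironolactone 1_1 and spironolactone 1_2, up to 0.0609 without spironolactone 1_2, and 1.23e-11 with the replicate block. *Epha5* had an adjusted p over 0.05 in 7 of the 8 fits without 1 library (all but aldosterone 2_1), up to 0.138 without spironolactone 2_2, and 7.51e-06 with the replicate block.

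Some called genes were neighbours. Among 12213 pairs of adjacent members within 100 kb of each other, both were higher in 38 and both lower in 6. Of single members, 1.98% were called higher and 0.575% lower, and the number of pairs that chance would give was not computed. The pairs include the *Serpina3*, *Fmo*, *Mt* and *Cxcl* clusters, *Dio3* with its antisense transcript *Dio3os*, *Selenop* with the overlapping *Ccdc152*, and *Fkbp5* with *E230001N04Rik*, which lies 5189 bases from it and had a log2 fold change of 4.26. Of the 5 consecutive genes *Nalcn*, *Itgbl1*, *Fgf14*, *Gm28932* and *Gm15422* on chromosome 14, all were higher. These pairs were named after their values were seen. The adjusted p of *Dio3os*, *Nalcn* and *Gm28932* rose over 0.05 with 1 library left out, up to 0.0819, 0.109 and 0.0877. Reads that run past the end of a gene, or that are shared by overlapping genes, cannot be told apart from expression of each in these counts.

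Few genes passed a test of whether the steroids differed unequally in the sample numbers. In a limma fit with an interaction of treatment and sample number, 4 members (0.0261%) passed an adjusted p of 0.05. *Angptl7*, a secreted angiopoietin-like protein, had 5377, 5691, 7469.9 and 8377 with aldosterone and 1123, 1223, 822 and 833 with spironolactone. Its difference was 2.24 in sample number 1 and 3.26 in number 2 (adjusted p of the interaction = 0.00126). *Cdkn1c* showed 3.16 and 2.19 (adjusted p = 0.00126). *Mfap1b*, a splicing factor gene, had 270.2, 373, 526 and 637 with aldosterone and 609, 464, 330.4 and 313 with spironolactone. Its directions were opposite in the numbers, -0.74 and 0.85 (adjusted p = 0.0304). *Igfbp5*, an IGF-binding protein, was the other gene of opposite directions, going from 0.41 to -0.19 (adjusted p = 0.0304). *Rrm2*, a subunit of ribonucleotide reductase, was next in order, with 0.62 and -0.004, and did not pass (adjusted p = 0.0575). By edgeR, 7 members passed. Whether the sample number is the mouse is not stated, so a mouse and another difference between the numbers cannot be told apart.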

How the data were processed

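RNA was sequenced after poly(A) selection from 12 libraries, of which 8 are compared here and the 4 vehicle libraries enter side values only. The submitters' processing notes name HISAT2 2.0.5, featureCounts 1.5.0-p3 and the genome build mm39, while the study's methods name an earlier mouse build, and gene positions are printed as mm39. The strand setting is not given in the sources used here. The authors deposited, for each pair of treatments, a signal value per gene and library, namely counts divided by a size factor, together with their own fold changes and p-values, which were not used. The deposited tables also hold other columns, such as gene length, which was used for levels per kilobase. Whole reads were recovered from the low values (100% of 193417 values whole), and library depth comes from them. There were 0 columns of unmapped samples.

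log2(normalized count + 1) was fitted by limma 3.58.1 in R 4.3.3 with a trend over all genes of a table, without a block. Called genes had a p, adjusted by the Benjamini-Hochberg method, no higher than 0.05 and a log2 fold change of at least 1 in size, and adjusted p-values in the text come from this fit unless another is named. Fold changes are on this log2 scale, which understates those of low genes. Single values were compared by exact two-sided permutation tests. edgeR 4.0.16 and DESeq2 1.42.0 were run on the recovered reads. Counting intervals are exact at 95% and cover counting error only. The scripts were tested on simulated data.

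Libraries of the same sample number deviated together from their group means (mean r 0.214 over 8 pairs, 0.135 to 0.291). The sample number therefore pairs the libraries and served as the replicate block of an alternative fit. For the biological replicate number the mean was 0.0194 (-0.233 to 0.291). Its pairs mix like and unlike sample numbers, so this mean cannot show whether the replicate number pairs libraries too. Replicate plates differed by more than sampling noise (chi-square per degree of freedom from 3.75 to 8.27). The members and gene lists were chosen with earlier results of these data known. Named genes are the 10 largest changes in each direction without overlap, all corticosteroid-responsive and steroid receptor genes, the called genes of each other list (or else up to 4 with the smallest adjusted p), the 5 largest differences in counts in each direction, the 5 called genes with the smallest p between spironolactone and vehicle, up to 5 transcription factors in each direction and the 5 smallest interaction p-values. Marker genes, neighbours and overlapping genes were named beside these. Promoter sequences are from RefSeq (GRCm38.p6), matched by symbol. A few genes of the lists are counted in the lists but not reported here by name.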

Additional observations from a re-analysis of the deposited data

Results flagged for a closer look

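In 13 of 308 groups of 4 libraries belonging to named genes, 1 library stood apart from the other 3 by Dixon's ratio of its gap to the range of the group (above its 95% critical value), and chance gives about 1 in 20 groups. With aldosterone the ratio was 0.980 for *Errfi1* (1_2 highest), 0.845 for *Hsd11b2* (1_1 highest) and 0.847 for *Dbp* (1_1 lowest). With spironolactone the highest library stood apart for *Fam107a* (1_2, ratio 1, the other 3 being equal), *Lamc3* (1_1, 0.892), *Gm45397* (2_1, 0.846) and *Esr1* (1_2, 0.836). The lowest spironolactone library stood apart for *Ramp2* (1_1, 0.924), *Plin4* (1_2, 0.890), *H6pd* (1_2, 0.877), *Pdk4* (2_1, 0.854), *Cebpd* (1_1, 0.837) and *Gsn* (1_1, 0.831). Except for *Esr1*, which was not called, the groups of these genes did not overlap.

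The difference between aldosterone and spironolactone differed between the sample numbers for 4 genes by the limma interaction. Given as the log2 fold change of number 2 minus that of number 1, it was 1.02 for *Angptl7*, -0.97 for *Cdkn1c*, 1.59 for *Mfap1b* and -0.60 for *Igfbp5*.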

How the results depend on the processing

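The counts of 303 higher and 88 lower genes became 322 and 112 with a replicate block for the sample number, 313 and 106 by edgeR, 318 and 101 by DESeq2, 304 and 88 with TMM scaling and 265 and 58 with a pseudocount of 8. Libraries summed per sample number with the replicate block gave 332 and 134. Sample number 1 alone gave 4 and 0, and number 2 alone 140 and 28, each with 2 libraries per group and so with fewer samples than the main fit. The gap between the numbers, which are equal in size, was not tested. Without 1 library the counts ran from 244 to 264 and from 57 to 71. Between spironolactone and vehicle, 2 genes were called with the replicate block against 0 without, and in the interaction 7 genes passed by edgeR against 4. Between aldosterone and vehicle, 564 genes became 696 with the replicate block and 449 to 495 without 1 library. Of the 154 named genes, 154 kept their call under TMM and upper-quartile scaling and a pseudocount of 0.5, and the replicate block moved 5 past the threshold and none below it. With plates taken as correlated within a sample number (correlation 0.0813), the counts were 294 and 83, and 6 named genes, 4 of them called, no longer passed. Of the 123 called named genes, 98 kept their adjusted p in all 8 fits without 1 library. Among the named genes, signs turned for 3 that were not called between the steroids. Without 1 library, the log2 fold change ran from -0.14 to 0.27 for *Mfap1b* and from -0.12 to 0.34 for *Igfbp5*. It was -0.74 for *Mfap1b* in sample number 1 alone, and -0.19 for *Igfbp5* and -0.0037 for *Rrm2* in number 2 alone. The cause was not tested. Genes with few reads, such as *Cxcl3*, are limited by depth.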
